A study of Mus musculus with 96 samples.

Results

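The genes described here copy the DNA: the proteins that mark and license replication origins, those that fire them, and those that work at the fork. The members were named by symbol from known roles, and all 50 were found among the 15895 genes of the deposited table. Primary mouse embryonic fibroblasts (MEFs, connective tissue cells grown from CF-1 embryos at embryonic day 13) were starved for 36 h (0.5% fetal calf serum) and were then given 20% serum, and the labels name no other agent and no engineered allele in any group. Poly(A) RNA was sequenced in 2 time courses, called Cycle 1 (63 libraries used, -1 to 38 h) and Cycle 2 (32 libraries, -1 to 27 h). Each time was sampled once per Cycle. The replicates are therefore the 4 starved libraries (-1 and 0 h of each Cycle) and the 2 Cycles at the 29 hours they share. The p-values measure the spread between these libraries. Tests over several hours count neighbouring hours of a Cycle as independent, as they do its -1 and 0 h libraries. There are only 2 time courses, so such p-values do not measure the spread between independent time courses. How many embryos or cultures stand behind a Cycle is not given in the sources used here, and serum starvation does not bring every cell of a culture into step. The depth was 5067426 to 14500300 reads per library, and the values are normalised reads per gene, scaled by the authors to one total in every library. The 24.5 h library of Cycle 1 stood apart from its neighbours for some members and enters no test, since Cycle 2 has no such hour. Fibroblast marker genes were abundant in the starved libraries (Col1a1, a collagen chain, had a mean of 113000 in Cycle 1 and 92010 in Cycle 2, n = 2 each). In bulk RNA, fewer cells that express a gene and less RNA per cell cannot be told apart.

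Replication is prepared before it starts. The origin recognition complex (ORC, Orc1 to Orc6) sits on origins, and Cdc6 and Cdt1 load the Mcm2 to Mcm7 helicase ring there, which is called licensing, while geminin (Gmnn) binds Cdt1 and prevents a second loading. The kinase Cdc7 with its activator Dbf4, together with Cdc45, the GINS complex (Gins1 to Gins4) and Mcm10, turns the loaded ring into a moving fork. Primase and polymerase alpha then make primers, polymerases delta and epsilon extend them, Pcna is the sliding clamp, Rfc1 to Rfc5 load it, Rpa1 to Rpa3 cover single-stranded DNA, and Fen1 and Lig1 join the lagging strand. Many of these genes are known targets of E2F factors, which are held back in resting cells.

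After serum 41 of 50 replication genes climbed from their 2 to 4 h level to a higher one at 15 to 18 h. At 2 to 4 h 14 of the 50 were called lower than in the starved libraries, as were 18.8% of all genes. Fewer members, and fewer of all genes, were called lower there when TMM factors were added to the scaling. Set against 2 to 4 h, the level at 15 to 18 h was higher in these 41 and lower in 0, with a limma adjusted p under 0.05 and a log2 difference above 1. By an unadjusted p under 0.05, 48 were higher and 1 was lower, and edgeR called 36 members. Among all genes 12.3% were higher and 11.5% lower by the limma rule with the adjusted p. By edgeR 1509 of all genes were higher and 2389 lower, and the unadjusted share of all genes was not counted. The median log2 difference was 1.55 over the members and 0.17 over all genes. This contrast was added after the values had been seen. Its baseline lies near the low point of the members, which had a median time of 2.5 h in Cycle 1 and 5 h in Cycle 2. Set against the starved libraries instead, 21 of 50 members were higher at 15 to 18 h (6.93% of all genes) and 0 were lower (16.8%), with a median log2 change of 0.95 beside -0.12 over all genes. An unadjusted p under 0.05 was reached by 40 members above and 2 below the starved level (Orc3 and Orc5). By edgeR 23 members were called, with 1145 of all genes higher and 2689 lower. Fitted alone, Cycle 1 gave 40 higher members (1572 of all 15895 genes) and Cycle 2 gave 1 (468 of all genes). Against 2 to 4 h Cycle 2 alone gave 14 (1293 of all genes). The 21 were Orc1 and Orc6 of the ORC, all of the licensing genes but Mcm6, Cdc45 and Mcm10 of the firing genes, Prim1 and Pold1 among primase and polymerases, Pcna, Rpa1 and Rpa2, Fen1, and the chromatin and fork genes Chaf1a, Chaf1b and Wdhd1.

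**Figure D1:**
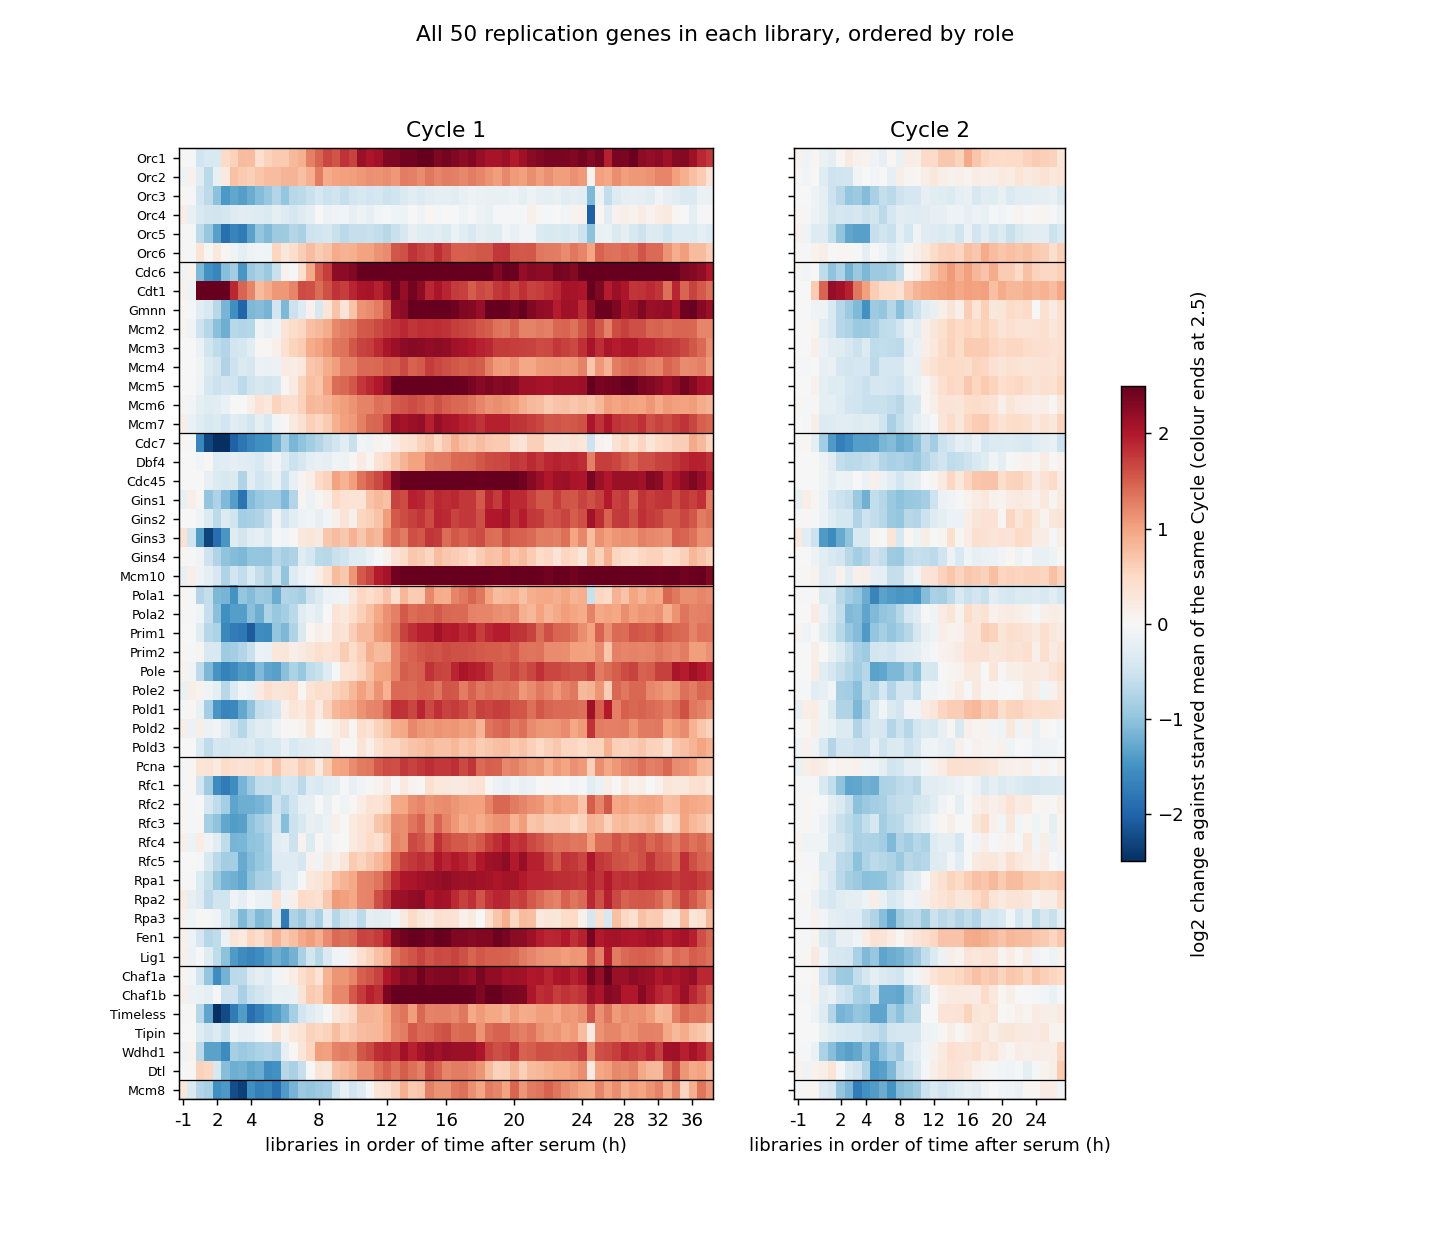
Log2 change of each of the 50 replication genes (rows, grouped by role) in each library (columns in order of time after serum, h) against the starved mean of the same Cycle. Most rows turn from blue at 2 to 4 h to red by 15 to 18 h in Cycle 1 and to pale red in Cycle 2.

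The rise above the starved level differed between the Cycles. The starved level was higher in Cycle 2 than in Cycle 1 for 43 of 50 members at an adjusted p under 0.05 (14.9% of all genes), and lower for 0 (17.3%). The median log2 difference was 0.87 over the members and -0.08 over all genes. For 47 members both starved libraries of Cycle 2 lay above both of Cycle 1, as they did for 29.5% of all genes. At 15 to 18 h the order was the opposite: 41 members were lower in Cycle 2 (10.8% of all genes) and 0 higher (8.49%), with a median log2 difference of -0.46, and without the 15 h libraries 25 were lower. For 43 members all 4 libraries of Cycle 1 lay above all 4 of Cycle 2 (14.4% of all genes). The rise from starved to 15 to 18 h was larger in Cycle 1 for 47 of 50 members (14.2% of all genes), with a median difference of 1.32 on the log2 scale, and the median rise was 3.03-fold in Cycle 1 and 1.22-fold in Cycle 2. Orc3, Orc4 and Orc5 were the members whose rise was not called different, with differences of 0.07, 0.13 and 0.04. In this test the libraries of neighbouring hours stood as replicates within a Cycle. The Cycles cannot be told apart from anything else that differed between the time courses.

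**Figure D2:**
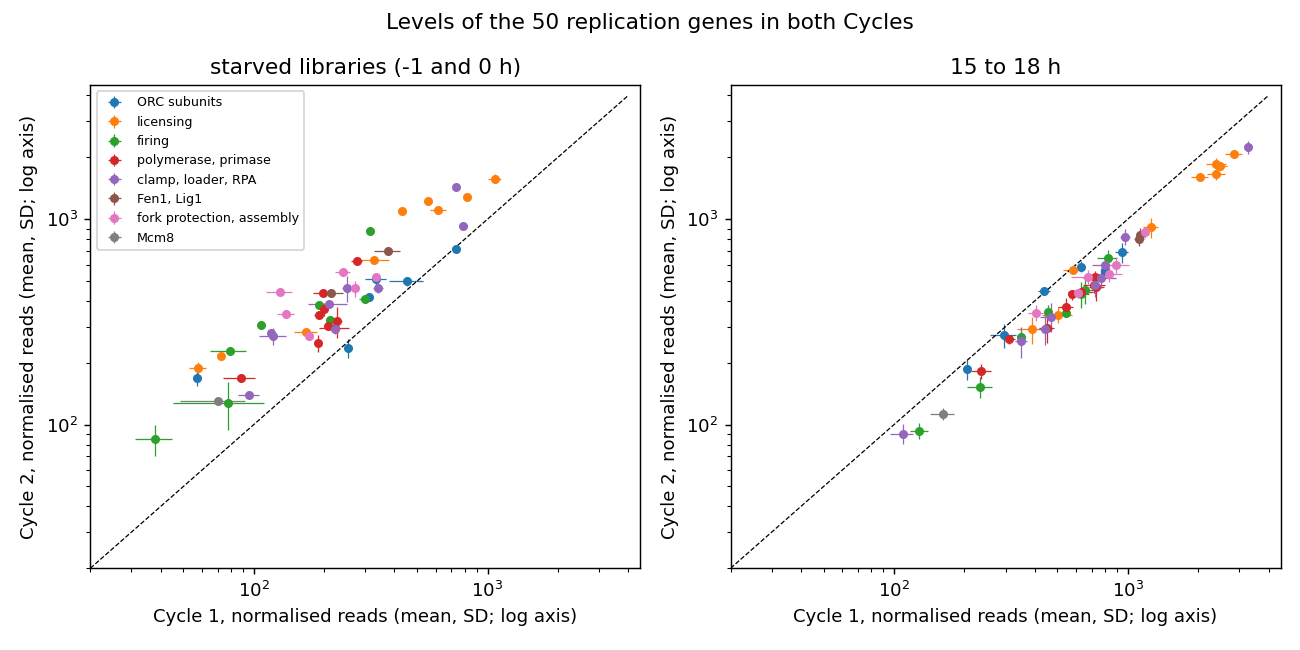
Mean and SD of each of the 50 genes in Cycle 1 (x axis, normalised reads, log scale) and Cycle 2 (y axis, same unit), in the starved libraries (left, n = 2 per Cycle) and at 15 to 18 h (right, n = 4 per Cycle), with a dashed line of equal levels. Most points lie above the line on the left and below it on the right.

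Other genes moved with the starved difference. All 14 genes of a mitotic list (among them Ccnb1, Plk1 and Cenpe) were higher in the starved libraries of Cycle 2 at an adjusted p under 0.05, with a median log2 difference of 1.70. The summed level of 10 fibroblast markers was 545268 to 569390 in the starved libraries of Cycle 1 and 403611 to 425208 in those of Cycle 2. Collagens make up most of this sum. Col1a1, Col1a2, Col3a1, Pdgfra, Dcn and Lum had lower starved means in Cycle 2, and Vim was about equal. Thy1 (2025 and 4543), Pdgfrb (3495 and 5256) and Fn1 had higher means in Cycle 2. The sum of 5 epithelial markers was 320 to 332 in Cycle 1 and 159 to 163 in Cycle 2, that of 5 endothelial markers 249 to 282 and 213 to 259, that of 4 blood cell markers 170 to 195 and 283 to 333, and that of 6 neural and muscle markers 997 to 1093 and 2002 to 2032. The last difference lay in Des, a muscle filament gene (means of 526.8 and 1634, n = 2 each), and Tubb3 (102.2 and 179.9), while Map2 (288.6 and 174.8), Myog (105.3 and 22.2) and Myod1 (21.1 and 5.88) were lower in Cycle 2, and the median log2 difference of the list was -0.73. Of the endothelial list Kdr (57.03 and 92.8) and Emcn (11.78 and 35.71) had higher starved means in Cycle 2, and Pecam1, Cdh5 and Tek had lower ones. Cd3e, which defines T cells, was listed at 0 in the starved libraries of both Cycles. The part of these differences in the result was not tested.

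Scaling matters for the early fall. The median log2 change of all genes at 2 to 4 h against starved was -0.32 under the authors' scaling and -0.06 with added TMM factors. The members had medians of -0.70 and -0.43. By the deposited scaling 14 members were lower at 2 to 4 h (18.8% of all genes) and 1, Cdt1, was higher (7.07%). With TMM factors 6 members were lower, beside 1891 of all 15895 genes, which is about the same share. At 4 to 10 h Cdt1 was higher (7.28% of all genes), and Cdc7 and Mcm8 were lower (17.9%). With TMM factors 0 members were called lower there, against 1 with edgeR (2318 and 2643 of all genes). Leaving out 1 starved library moved these small counts: without either library of Cycle 1 Cdt1 was not called and 4 or 5 members were lower. Over the whole time course an F test called 21 members whose largest change was a rise (15.5% of all genes) and 19 whose largest change was a fall (37%).

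The low point was measured as the lowest 3-point running median from 1 to 10 h, relative to the starved mean of the same Cycle. Its median over the members was -1.00 on the log2 scale in Cycle 1, at a median time of 2.5 h, and -0.875 in Cycle 2, at 5 h, and in 17 members it lay at least 2-fold under the starved level in both Cycles, as it did in 26.9% of all genes. From there to the highest later value up to 27 h the median climb was 2.72 in Cycle 1 and 1.17 in Cycle 2, and it was largest for Cdc6 in both. A climb of at least 2-fold was present in 49 members in Cycle 1 (54.3% of all genes), in 33 in Cycle 2 (41.1%) and in the same 33 in both (35.3%). Orc4 was the member without one in Cycle 1.

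**Figure D3:**
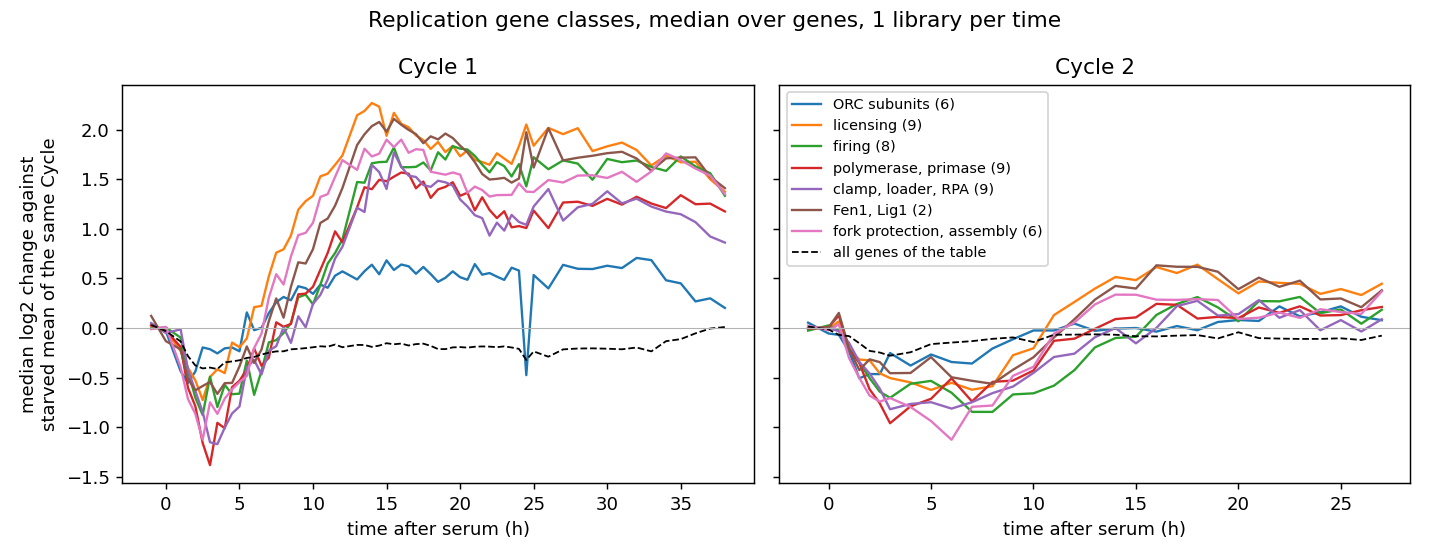
Median log2 change against the starved mean of the same Cycle (y axis) over the genes of each role, by time after serum (x axis, h), with 1 library per time and the number of genes in parentheses. The dashed line is the median of all genes of the table. Licensing genes reached 2.27 at 14 h in Cycle 1, and ORC subunits stayed under 0.71.

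The 4 promoters below are those of the largest risers among licensing, firing and polymerase genes and of the ORC subunit that changed least. They show where the motif strings searched in this gene set do and do not lie. Each run is the 250 bases before the annotated start, written 5′ to 3′ on the gene's strand, from RefSeq on GRCm38.p6, which is a different build from that of the reads. Capitals mark matches to the E2F strings TTTCCCGC, TTTCGCGC, TTTGGCGC and TTTGCCGC, to the cell cycle homology region (CHR) strings TTTGAA and TTCGAA, or to CCAAT, searched on both strands, and no string of one set holds a string of another. The Cdc6 stretch is chr11:98907901-98908150 (plus strand), that of Mcm10 chr2:5012792-5013041 (minus), that of Pold1 chr7:44548816-44549065 (minus) and that of Orc4 chr2:48949268-48949517 (minus, 1 of 3 annotated starts).
Cdc6: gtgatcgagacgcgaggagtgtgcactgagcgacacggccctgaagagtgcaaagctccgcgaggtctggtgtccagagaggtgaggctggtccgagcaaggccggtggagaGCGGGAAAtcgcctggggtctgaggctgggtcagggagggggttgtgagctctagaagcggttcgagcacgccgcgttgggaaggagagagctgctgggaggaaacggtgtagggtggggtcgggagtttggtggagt
Mcm10: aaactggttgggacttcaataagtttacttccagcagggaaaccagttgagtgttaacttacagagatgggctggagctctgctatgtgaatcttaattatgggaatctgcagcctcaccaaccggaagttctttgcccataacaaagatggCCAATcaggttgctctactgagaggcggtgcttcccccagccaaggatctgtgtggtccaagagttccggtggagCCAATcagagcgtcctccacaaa
Pold1: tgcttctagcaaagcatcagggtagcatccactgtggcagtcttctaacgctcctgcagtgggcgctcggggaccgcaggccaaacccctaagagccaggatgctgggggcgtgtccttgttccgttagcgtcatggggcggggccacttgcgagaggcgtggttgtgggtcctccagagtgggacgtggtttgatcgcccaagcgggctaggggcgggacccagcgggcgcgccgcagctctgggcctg
Orc4: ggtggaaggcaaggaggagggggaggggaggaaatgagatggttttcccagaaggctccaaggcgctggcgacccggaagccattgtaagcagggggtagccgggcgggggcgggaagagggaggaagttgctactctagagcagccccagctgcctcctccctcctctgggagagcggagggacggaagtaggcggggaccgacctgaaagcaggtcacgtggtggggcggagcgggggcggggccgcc

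Cdc6 had 1 E2F string, whose first base lay 138 bases before the start. Mcm10 had none and had CCAAT at 98 and at 23 bases before the start and at 31 bases past it, and Pold1 had its E2F string 39 bases past the start, outside the stretch shown. The Orc4 window shown held none of the strings, and another of its 3 windows held 1 CCAAT. Of the 41 members with a promoter in the table (window 250 bases before to 50 after the start), 17 held an E2F string, or 41.5%, against 494 of 11510 genes of the series, or 4.29%. By role the count was 6 of 7 licensing genes, 4 of 7 polymerase and primase genes, 2 of 6 ORC subunits, 1 of 5 firing genes and 1 of 8 clamp, loader and RPA genes. CHR strings were in 22% of members and 16.4% of all genes, and CCAAT in 58.5% and 42%. In the mitotic list CHR strings were in 10 of 12 genes and an E2F string in 1. The median log2 change at 15 to 18 h was 0.93 in the 17 members with an E2F string and 1.00 in the 24 without, and the Cycle 1 midpoints had medians of 8.50 h and 8.48 h. A match is a run of letters, not a measured binding site.

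Among the ORC genes the subunits behaved differently. Orc1, the largest subunit, had values of 58.6 and 55.6 in the starved libraries of Cycle 1 and 177.4 and 158.2 in those of Cycle 2. At 15, 16, 17 and 18 h it stood at 343.4, 302.1, 272.4 and 262.3 in Cycle 1 and at 248.4, 324.3, 272.3 and 243.2 in Cycle 2. Every 15 to 18 h library lay above every starved library, and the Cycles overlapped there. Orc1 rose by 1.51 on the log2 scale (SE 0.31, limma adjusted p = 0.000106). Orc6 rose by 1.16 (SE 0.17, adjusted p = 4.76e-07), from starved means of 311 ± 11 and 416 ± 14 (SD, n = 2) to 942 ± 56 and 690 ± 79 (n = 4) in Cycles 1 and 2. Orc2 had a log2 change of 0.70 (SE 0.16), short of the 2-fold limit, and was 2.39-fold higher in Cycle 1 and 1.10-fold in Cycle 2.

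Orc3, Orc4 and Orc5 stood a little under the starved level at 15 to 18 h, with log2 changes of -0.25, -0.10 and -0.33, none past the 2-fold limit. Orc4, the member with the smallest change of the complex, had starved values of 506.0 and 400.9 in Cycle 1 and 517.3 and 482.3 in Cycle 2, and 415.6 to 469.9 and 427.9 to 457.0 at 15 to 18 h. Its groups overlapped in Cycle 1 and not in Cycle 2, where the later values were lower (SE of the change 0.07, adjusted p = 0.206). Orc3 and Orc5 were called lower at 2 to 4 h, by -1.08 (SE 0.08) and -1.40 (SE 0.12) on the log2 scale. Orc3 then stood at 630 ± 24 in Cycle 1 and 588 ± 35 in Cycle 2 at 15 to 18 h (SD, n = 4), against starved means of 732 and 713. Per kilobase of the longest coding transcript of each gene in GENCODE, the 15 to 18 h level in Cycle 1 was highest for Orc6, at 570 ± 34 normalised reads (SD, n = 4), then Orc3 at 274 ± 10, Orc2 at 224 ± 8.0, Orc4 at 108 ± 6.6, Orc5 at 97.2 ± 3.5 and Orc1 at 72.0 ± 8.9. The values of Orc2, Orc4 and Orc6 average several transcripts, so dividing by the longest is less certain for them. The order was the same in Cycle 2, and each gap between neighbours was larger than the sum of their SDs in both Cycles. Orc1 had the lowest level per length in the starved libraries as well, and the largest change of the complex.

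Licensing genes had the highest median log2 change of the classes at 15 to 18 h, 1.35 over 9 genes, 8 of them called. Cdc6 (chr11:98769115-98785254 on mm9, the build of the reads), the loader, had 54.1 and 61.1 in the starved libraries of Cycle 1 and 197.5 and 178.4 in those of Cycle 2. Its lowest values at 2 to 4 h were 18.0 in Cycle 1 and 82.2 in Cycle 2. At 15 to 18 h it read 552.4, 569.9, 479.4 and 407.1 in Cycle 1 and 344.7, 384.2, 334.2 and 308.2 in Cycle 2. All of these exceeded the starved libraries of both Cycles and the 2 Cycles did not overlap. Cdc6 rose by 1.98 on the log2 scale (SE 0.45, adjusted p = 0.000307), the largest change of any member, and was 8.72-fold higher in Cycle 1 and 1.82-fold in Cycle 2.

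Cdt1 (chr8:125091915-125097028 on mm9), the second loading factor, was the only member called higher at 2 to 4 h. It had 180.4 and 154.1 in the starved libraries of Cycle 1 and 280.4 and 284.3 in those of Cycle 2. By 1.5 h it had reached 1510.8 in Cycle 1 and 1302.9 in Cycle 2, and by 4 h it was back to 391.1 and 576.8. The 2 to 4 h level was 1.85 log2 units above starved (SE 0.16, adjusted p = 1.6e-11), and every one of its 8 libraries lay above the starved values. A second climb in Cycle 1 went from 291.8 at 4.5 h to 894.9 at 13 h, while Cycle 2 went from 365.3 at 8 h to 581.6 at 14 h. At 15 to 18 h Cdt1 stood 1.40 log2 units above starved (SE 0.16, adjusted p = 1.07e-08). Its rise at 1 h made it the only member with a sustained 2-fold rise in both Cycles.

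Geminin, the inhibitor of Cdt1, followed later. Gmnn had 73.6 and 71.1 in the starved libraries of Cycle 1 and 213.7 and 216.7 in those of Cycle 2, and its 2 to 4 h level was 1.09 log2 units lower (SE 0.40, adjusted p = 0.0195). It read 17.3 at 3.5 h in Cycle 1 and 74.9 at 4 h in Cycle 2. At 15 to 18 h it stood at 410.0, 447.2, 363.4 and 330.4 in Cycle 1 and at 236.0, 330.1, 272.3 and 323.9 in Cycle 2, a log2 change of 1.41 (SE 0.40, adjusted p = 0.00338). Its rise time, at which the running median passed the midpoint of its highest log2 change against starved, was 11.35 h in Cycle 1, the latest of the licensing genes.

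**Figure D4:**
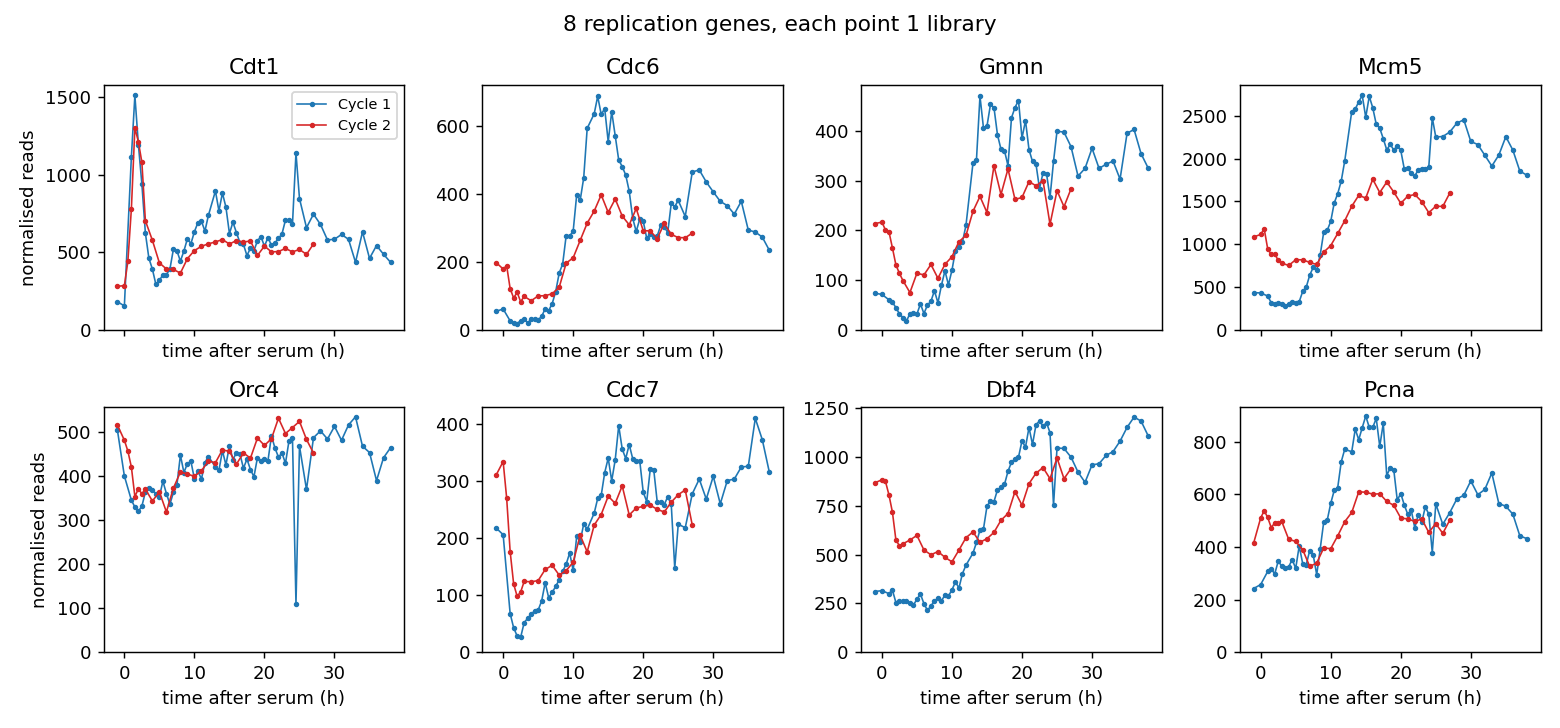
Normalised reads (y axis, from 0) of 8 replication genes by time after serum (x axis, h) in Cycle 1 and Cycle 2, with each point 1 library. Cdt1 peaks at 1.5 h in both Cycles, Orc4 stays near its starved level after 10 h but for the 24.5 h library of Cycle 1, and Dbf4 is still climbing at 18 h.

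All of the helicase subunits Mcm2 to Mcm7 but Mcm6 were called higher. Mcm5 rose most, from 432.9 and 430.4 in the starved libraries of Cycle 1 and 1084.6 and 1114.1 in those of Cycle 2 to 2482.3, 2594.5, 2356.3 and 2101.9 in Cycle 1 and 1539.4, 1758.8, 1603.9 and 1726.1 in Cycle 2 at 15 to 18 h. No value of the later groups came as low as a starved one, and the Cycles stayed apart. The log2 change was 1.52 (SE 0.36, adjusted p = 0.000513), beside 1.35 for Mcm3, 1.24 for Mcm7, 1.12 for Mcm2 and 1.05 for Mcm4, which were also called. Mcm6, at 0.90 (SE 0.20), did not reach the 2-fold limit. Per kilobase, the 15 to 18 h levels of the 6 subunits ran from 424 ± 30 (SD, n = 4) for Mcm7 to 799 ± 76 for Mcm3 in Cycle 1, and from 309 ± 34 to 621 ± 40 for the same genes in Cycle 2. Mcm2, Mcm4, Mcm5 and Mcm6 lay between 604 and 697 in Cycle 1, with SDs of 51 to 62, and neighbours in that order differed by less than the larger of their SDs.

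Firing genes were more uneven. Mcm10, which helps to activate the helicase, rose by 1.70 on the log2 scale (SE 0.44, adjusted p = 0.00146). It had 69.1 and 88.4 in the starved libraries of Cycle 1 and 222.3 and 234.0 in those of Cycle 2, and stood at 514.4 to 569.6 and 336.1 to 364.9 at 15 to 18 h, with no overlap between states or Cycles. Cdc45, a part of the moving helicase, rose by 1.57 (SE 0.40, adjusted p = 0.00118), from 107.5 and 108.0 (Cycle 1) and 301.0 and 307.8 (Cycle 2) to 604.7 to 731.7 and 366.0 to 498.2. Gins1, Gins2 and Gins3 had combined log2 changes of 0.94, 0.94 and 0.96, each under the 2-fold limit. They stood at 3.38, 3.32 and 3.01 times starved in Cycle 1 and at 1.10, 1.13 and 1.20 times in Cycle 2. Gins4 had a log2 change of 0.20 (SE 0.19, limma adjusted p = 0.369).

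The kinase and its activator had different courses. Cdc7 was 217.9 and 206.1 in the starved libraries of Cycle 1 and 310.7 and 334.4 in those of Cycle 2, and 26.3 to 66.5 and 98.1 to 124.1 at 2 to 4 h, a log2 change of -1.94 (SE 0.28, limma adjusted p = 3.97e-07). Every 2 to 4 h value lay below every starved one, and the running median fell to -2.85 in Cycle 1, the deepest low point of all members. At 15 to 18 h Cdc7 stood at 337.3 to 364.1 in Cycle 1, above its starved values, and at 240.7 to 291.7 in Cycle 2, below them. These were 1.65 and 0.827 times starved, and the combined change was not called (log2 change 0.22, SE 0.28, limma adjusted p = 0.513). Dbf4 had the latest midpoint of climb in Cycle 1 (13.3 h). From 311.1 and 315.5 in starved Cycle 1 it stood at 747.7, 771.6, 844.8 and 926.6 at 15, 16, 17 and 18 h, and at 1165.5 at 22 h. In Cycle 2 it began at 868.1 and 883.4, went down to 463.0 at 10 h and was back to 995.0 at 25 h. The groups at 15 to 18 h lay above starved in Cycle 1 and below it in Cycle 2, and the combined change of 0.47 was not called (SE 0.29, adjusted p = 0.166).

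Of the 9 polymerase and primase genes 5 were called lower at 2 to 4 h (Pola1, Pola2, Prim1, Pole and Pold1), and the class median was a log2 change of -1.08. Pold2, Pold3, Pole2 and Prim2 had -0.41, -0.45, -0.60 and -0.67 and were not called. Pold1, the catalytic subunit of polymerase delta, had 217.9 and 234.3 in starved Cycle 1 and 280.4 and 356.0 in starved Cycle 2, and went to 71.4 to 111.6 and 145.4 to 187.5 at 2 to 4 h. At 15 to 18 h it stood at 709.2, 731.2, 723.7 and 742.6 in Cycle 1 and at 488.3, 540.6, 567.3 and 495.4 in Cycle 2. The early values lay under and the late ones over all starved values of the same Cycle. Pold1 rose by 1.20 on the log2 scale against starved (SE 0.27, adjusted p = 0.000355) and by 2.34 against 2 to 4 h (SE 0.22, adjusted p = 5.64e-11). Prim1, the small primase subunit, rose by 1.11 (SE 0.33, adjusted p = 0.0042), from 196.9 and 201.5 in Cycle 1 and 383.5 and 344.5 in Cycle 2 to 660.9 to 777.6 and 392.0 to 555.9. Pola1, the catalytic subunit of polymerase alpha, had the smallest change of the class, at 0.35 (SE 0.31, adjusted p = 0.336), standing at 2.29 times starved in Cycle 1 and 0.71 times in Cycle 2. Pola2, Prim2, Pole, Pole2, Pold2 and Pold3 had changes of 0.39 to 1.00 and were not called, with Pold2 at 2.03 times starved in Cycle 1 and 0.995 times in Cycle 2.

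The clamp and the Rpa1 and Rpa2 subunits rose, and neither Rpa3 nor the loader subunits passed the 2-fold limit in the test of both Cycles. Pcna (chr2:132074898-132079050 on mm9) had 242.0 and 257.1 in starved Cycle 1 and 414.9 and 510.1 in starved Cycle 2, and 897.0, 854.0, 781.5 and 671.1 (Cycle 1) and 607.8, 600.4, 601.7 and 572.8 (Cycle 2) at 15 to 18 h. Its groups did not overlap within either Cycle, and the log2 change was 1.02 (SE 0.20, adjusted p = 4.28e-05). Unlike most members Pcna had no early low point in Cycle 1, where its 2 to 4 h values were 297.1 to 345.4. Rpa1, the large subunit of the single-strand binding complex, rose by 1.39 (SE 0.27, adjusted p = 5.52e-05). Its values went from 750.0 and 721.2 in Cycle 1 and 1440.4 and 1438.0 in Cycle 2 to 3142.6 to 3437.3 and 2030.0 to 2390.7, with no overlap. Rpa2 rose by 1.14 (SE 0.30, adjusted p = 0.00152), and Rpa3 had -0.22 (SE 0.20, adjusted p = 0.356), with 95.4 to 124.4 at 15 to 18 h in Cycle 1 and 83.1 to 104.2 in Cycle 2.

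Rfc1, the largest subunit of the loader, had the smallest change of the class, 0.07 (SE 0.13, adjusted p = 0.669), after a fall to 232.8 to 418.5 in Cycle 1 and 371.2 to 460.6 in Cycle 2 at 2 to 4 h from starved means of 784 ± 32 and 929 ± 31 (SD, n = 2). Rfc2 to Rfc5 had combined log2 changes of 0.56 to 0.98. Rfc2, Rfc3, Rfc4 and Rfc5 stood at 2.14, 2.11, 2.89 and 3.75 times starved in Cycle 1. In Cycle 2 they stood at 1.03, 1.15, 0.951 and 1.05 times. The lagging strand genes differed in size. Fen1, the flap nuclease, rose by 1.63 (SE 0.28, adjusted p = 7e-06), from 232.5 and 196.0 in Cycle 1 and 443.9 and 426.0 in Cycle 2 to 1071.0 to 1186.7 and 712.6 to 844.6. Lig1, the ligase, had 0.93 (SE 0.31) and was not called. It had 408.8 and 340.1 in starved Cycle 1 and 1095.2 to 1167.8 at 15 to 18 h, against 678.5 and 718.3 and then 740.9 to 886.2 in Cycle 2.

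Chromatin assembly and fork protection genes had the largest median climb of the replication classes, 3.41 log2 units in Cycle 1. Chaf1b and Chaf1a, subunits of the factor that puts histones on new DNA, rose by 1.48 (SE 0.41, adjusted p = 0.00239) and 1.46 (SE 0.33, adjusted p = 0.000345). Chaf1b had 141.3 and 117.6 in starved Cycle 1 and 452.2 and 431.0 in starved Cycle 2, then 657.5 to 911.5 and 512.4 to 619.8. Chaf1a went from 254.0 and 228.9 and from 558.0 and 552.9 to 1137.0 to 1236.6 and 798.8 to 927.9. Neither gene overlapped its starved libraries in either Cycle. Wdhd1, which links helicase and polymerase alpha, rose by 1.24 (SE 0.30, adjusted p = 0.000653). Timeless and Tipin, which form a fork protection pair, had log2 changes of 0.79 and 0.80, and Dtl, which directs Cdt1 to destruction, had 0.75 (SE 0.26, adjusted p = 0.0146), the smallest of the class. Mcm8, a relative of the helicase subunits with a role in repair, was called lower at 2 to 4 h (-1.50, SE 0.30) and had a change of 0.50 (SE 0.30, adjusted p = 0.144) at 15 to 18 h.

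The order of onset was read in 3 ways. By the test, a member was called higher than starved at 2 shared hours in a row in 23 cases (14.4% of all genes). Cdt1 passed at 1 h, then Orc1, Cdc6 and Fen1 at 11 h, Mcm2, Mcm3, Rpa2 and Chaf1a at 12 h, and Mcm5, Mcm7, Mcm10, Orc6, Pold1, Rpa1, Chaf1b and Wdhd1 at 13 h. Cdc45 and Pcna passed at 14 h, Mcm4 at 15 h, Gins2 at 16 h, and Gmnn, Prim1 and Rfc5 at 18 h. A gene with a larger change or less spread passes earlier by this rule, so the order is not one of times alone. The count also rested on the starved libraries of Cycle 1: without the 0 h library 11 members passed, without the -1 h library 12.

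By a sustained 2-fold rise within a Cycle, 42 of 50 members had an onset in Cycle 1 (23.5% of all genes) and 1, Cdt1, in Cycle 2 (14.9%), and only Cdt1 had one in both (10.3% of all genes). In Cycle 1 the median rise time (midpoint of the highest log2 change against starved) was 8.28 h for 9 licensing genes, from 1 h for Cdt1 to 11.35 h for Gmnn. It was 7.57 h for the 3 ORC subunits that rose, 9.55 h for 6 fork protection and assembly genes, 10.2 h for Fen1 and Lig1, 11.1 h for 6 firing genes, 11.2 h for 8 polymerase and primase genes, 11.5 h for 7 clamp, loader and RPA genes and 14.15 h for Mcm8. Licensing genes were first among the larger classes, but their range reached into those of the firing genes (9.29 to 13.8 h) and the polymerases (9.22 to 14.0 h). The mitotic list followed at 15.6 h.

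Because hardly any member doubled above starved in Cycle 2, the climb was also timed from the low point, by the time at which its midpoint was reached on the log2 scale. Licensing genes had a median midpoint of 7.62 h in Cycle 1 (9 genes) and 10.7 h in Cycle 2 (7 genes). For polymerase and primase genes these were 8.93 and 10.5 h, for firing genes 9.97 and 10.7 h. For clamp, loader and RPA genes they were 9.26 and 11.5 h, and for the mitotic list 13.4 and 17.0 h. Fork protection and assembly genes had 7.88 h (6 genes) and 10.0 h (5 genes), and Fen1 and Lig1 had 8.53 and 8.22 h. ORC subunits had 6.74 h (5 genes) in Cycle 1, and Orc5 alone had 4.71 h in Cycle 2. In Cycle 2 these last classes came before the licensing genes, and of them only the ORC subunits did in Cycle 1. Licensing genes came before the polymerases in Cycle 1 and not in Cycle 2. In both Cycles these 2 classes lay closer together than 1.61 h, the median SD of a member's midpoint between the Cycles. Licensing and firing genes lay further apart than that in Cycle 1 and closer in Cycle 2. This SD includes the delay that most members shared in Cycle 2, so it does not measure the error of a gap between classes within a Cycle. The mitotic list was later than each of these classes in both Cycles. In 29 of 33 members the midpoint was later in Cycle 2, with a median difference of 1.93 h. Across these 33 genes the midpoints of the Cycles had a Spearman rho of 0.742 and a Pearson r of 0.664, as a description, since genes of one library share its depth and are not independent. Gins3, Orc5, Fen1 and Mcm8 were the members with an earlier midpoint in Cycle 2.

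**Figure D5:**
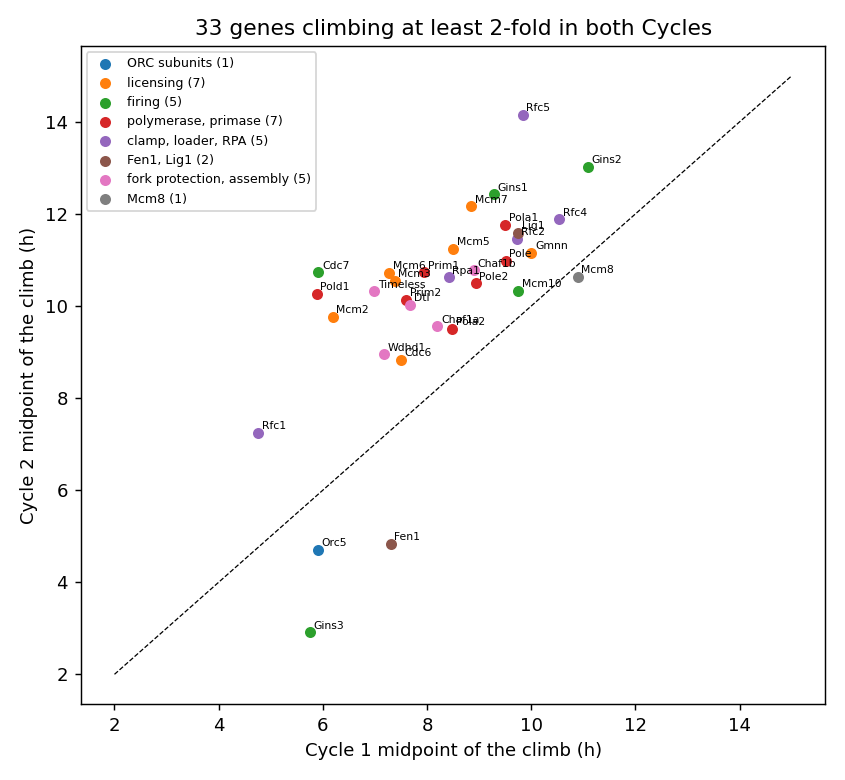
Time at which the climb from the low point reached its midpoint, in Cycle 1 (x axis, h) and Cycle 2 (y axis, h), for the 33 genes that climbed at least 2-fold in both, coloured by role, with a dashed line of equal times. Points for 29 genes lie above the line, and Gins3, Orc5, Fen1 and Mcm8 lie below it.

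In Cycle 1 several members passed a high, a lower stretch and a second high. Cdc6 read 685.9 at 13.5 h, 275.4 at 22 h and 469.6 at 28 h, and Mcm5 read 2738.0 at 14.5 h, 1798.0 at 22 h and 2454.2 at 29 h. In Cycle 2 Cdc6 read 396.3 at 14 h, 267.5 at 22 h and 283.8 at 27 h, and Mcm5 read 1758.8 at 16 h, 1368.2 at 24 h and 1598.2 at 27 h, the last hour sampled. These hours were picked from the curves and carry no test. At 25 to 27 h against 15 to 18 h limma called 0 of 50 members higher (0.239% of all genes) and 0 lower (1.13%), with 2 at an unadjusted p under 0.05 and 0 by edgeR. The differences ran from -0.45 for Pcna to 0.44 for Dbf4, with a median of -0.13. Of the mitotic list Ccnb2, Cdc20 and Cenpa were higher at 25 to 27 h, by 1.21, 1.21 and 1.32. In Cycle 1, sampled alone from 28 to 38 h, 39 members had a median of at least 2 times their starved level there. The share of all genes was not counted for this measure. The median log2 change against starved was 1.19 to 1.48 over the members in these libraries, beside -0.24 to 0.01 over all genes. Cdc6 ran from 234 to 470 with a median of 365 over these 11 libraries, Mcm5 from 1807 to 2454 with a median of 2100, and Dbf4 from 870 to 1205 with a median of 1028. Orc1 stayed between 196 and 315. There is no replicate for these hours.

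Genes with neighbouring roles were counted in the same way. Of 38 other replication genes, 12 were higher at 15 to 18 h against starved (6.93% of all genes) and 0 lower (16.8%). Against 2 to 4 h 25 were higher (12.3% of all genes) and 1, Top1, was lower (11.5%). Their median log2 change against starved was 0.66. These changes were largest for Exo1 (2.02), a nuclease, Chtf18 (1.80), which loads the clamp, Recql4 (1.54), Dna2 (1.50), Clspn (1.46) and Asf1b (1.41). At 2 to 4 h 17 of the 38 were lower by the deposited scaling, as were 18.8% of all genes. Of 11 regulators of entry into S phase, 5 were higher at 15 to 18 h: Ccne1 (1.79) and Ccne2 (1.37), the E cyclins, the repressors E2f7 (1.76) and E2f8 (1.09), and the phosphatase Cdc25a (1.18). Tfdp1, a partner of E2F factors, had 0.70 and was not called. Of the 14 mitotic genes 1, Cdk1, was higher at 15 to 18 h, by 1.03, and 6 were lower at 2 to 4 h. The shares of all genes given for the 38 genes apply to these 2 lists as well.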

How the data were processed

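RNA was taken from primary MEFs after starvation and at set times after serum, and poly(A) libraries were made with a stranded kit and read as single 50-base ends. Per the labels and the submitters' processing notes, reads were demultiplexed with CASAVA, aligned to mm9 with STAR and counted in exons with HOMER on both strands, so overlapping and antisense genes cannot be told apart. The authors deposited 1 table of signal values, exon reads per gene scaled to a common total in each library. 1 column of 96, named for 12.5 h without a Cycle, was not used, so the 12.5 h library of Cycle 1 was not analysed here. Low values came out as whole reads in 94.23 to 96.2% of cases (tolerance 0.01 read), which gave the depth of each library, and edgeR (4.0.16) was run on those reads as an alternative. For 10 members the values average several transcripts.

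Groups came from the labels (Cycle and time). Values were tested as log2(value + 1) with limma (3.58.1, R 4.3.3) over all 15895 genes at the 29 shared hours, with Cycle as a block, and p-values were adjusted by the Benjamini-Hochberg method. A gene was called where the adjusted p was under 0.05 and its log2 change passed 1 in either direction. A fold change on this scale understates the change of low genes. The Cycle 1 minus Cycle 2 difference of every gene at each shared hour was correlated between hours (406 pairs of hours, median r 0.303, lowest 0.00531). Differences between the Cycles were thus partly shared across hours. The block comes from the Cycle in the labels. Cycle differences were tested in a second limma fit with Cycle and state as cells, at an adjusted p under 0.05. Times were read from running medians of 3 points within each Cycle, and a sustained rise needed 2 hours in a row. The contrasts with 2 to 4 h, the Cycle fit and the climb from the low point were added after the values had been seen. Members and lists were chosen with earlier results of these data known. Every member is named with values or given in a range, and all 50 had a mean of at least 10. The fits were tested on simulated data. Alternatives were TMM factors, edgeR, a pseudocount of 10, a filter at a mean of 10, a trended prior, no replicate block, each starved library left out and each Cycle alone.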

Additional observations from a re-analysis of the deposited data

Results flagged for a closer look

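The rise from the starved libraries to 15 to 18 h differed between the Cycles in 47 of 50 replication genes. This was a test of the difference itself (limma, adjusted p under 0.05), and all 47 rose further in Cycle 1. Among all genes 14.2% were called in that direction and 13.6% in the other. Libraries of neighbouring hours stood as replicates within a Cycle, so these p-values do not measure the spread between independent time courses. On the log2 scale the differences between the rises were 2.37 for Chaf1b, 2.23 for Cdc6 and 2.17 for Mcm10. The starved libraries of Cycle 2 lay above those of Cycle 1 for the same 3 genes, and the part of the time course itself in these differences cannot be told apart from that of the cultures.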

How the results depend on the processing

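The 21 members called higher at 15 to 18 h kept that direction under all settings tried. Among members not called there, Cdc7, Dbf4, Gins4, Pola1, Pold2, Rfc1, Rfc4 and Mcm8 were below starved in Cycle 2 alone and Rpa3 was above it in Cycle 1 alone. With TMM factors 12 members were lower over the time course, 6 at 2 to 4 h and 0 at 4 to 10 h. With edgeR these counts were 12, 7 and 1, and with a pseudocount of 10 the 4 to 10 h count was 1. Of all 15895 genes, 1891 were lower at 2 to 4 h with TMM factors and 2176 with edgeR, shares near those of the members. TMM factors move the median of all genes by construction. A sustained 2-fold rise in Cycle 2, and in both, was met by 13 members at 1.5-fold and by 2 at 1 hour. The level at 15 to 18 h was lower in Cycle 2 for 25 members without the 15 h libraries, and the cause was not tested.

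Leaving out a starved library or a whole Cycle gave ranges of 0 to 30 members higher and 0 to 24 lower over the time course, where a single Cycle leaves too few libraries for calls. At 4 to 10 h the ranges were 0 to 2 higher and 0 to 5 lower, and with 1 starved library out they were 0 to 1 and 2 to 5. At 15 to 18 h they were 1 to 40 higher (16 to 29 with 1 starved library out), against 2 to 4 h 14 to 46, and for the tested onset 0 to 36 (11 to 29). Without the replicate block the tested onset was met by 21 members, and 21 members were higher at 15 to 18 h. The block changed no other count of members.

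Each time was sampled once per Cycle, at a depth of 5067426 reads or more, and the lowest value of a member was 9.86. The shares of counting error and of the spread between Cycles in the tests were not separated.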

Other observations

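The library of Cycle 1 at 24.5 h stood apart, for ORC subunits among others. Its median log2 change over all genes against starved was -0.32, beside -0.21 at 24 h and -0.24 at 25 h. At 24.5 h Orc3 read 334.6, against 601.9 at 24 h and 669.0 at 25 h. Orc4 read 109.7, against 487.4 and 469.0, and Orc5 read 123.2, against 173.7 and 222.6. Other members moved in both directions there: Cdt1 read 1141.0, against 680.8 and 846.2, and Dbf4 read 751.8, against 1124.8 and 1046.1. Orc3, Orc4 and Orc5 were the 3 members at least 2-fold under their starved mean in that library. No other Cycle 1 library from 7.5 h on held such a member, and the share of all genes was not counted for this measure. The hour was not sampled in Cycle 2, so this library enters no test above.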
